A study of Mus musculus with 39 samples.

Results

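This comparison set RNA labelled for 6 h in the living mouse against RNA labelled for 4 d, in 8 of the series' 39 samples. Its members are the 4 libraries of the 6 h label (TU_6h in vivo, replicates 1 to 4) and the 4 libraries of the 4 d label (TU_4d, replicates 1 to 4), chosen by their labels. All carry the genotype Pax7CreER/+; UPRTHA/+. In these mice the Pax7 promoter drives an inducible Cre, and the UPRT transgene (uracil phosphoribosyltransferase, HA-tagged) is meant to be switched on in muscle stem cells, also called satellite cells. The 6 h group had the uracil analogue 4-thiouracil (4tU) injected 6 h before the hindlimb muscles were taken. In the 4 d group injections were repeated at 12 h intervals over 4 d. The pull-down of labelled RNA started from whole hindlimb muscle and not from sorted cells. Each library was made from 500 pg of RNA with an oligo(dT) primer, which selects polyadenylated transcripts, and 13 to 15 cycles of amplification, and was read as 101 bp pairs. A further 3 groups are used below as reference levels with 4 libraries each, namely the 1 d label (12 h between injections), the unlabelled total RNA of hindlimb muscle, and the unlabelled total RNA of isolated stem cells. The labels give neither age nor sex, nor when the Cre was induced.

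UPRT converts uracil into UMP, the first step of uracil salvage. Mammalian cells have little of this activity, so a cell given the enzyme can build 4tU into the RNA it makes and that RNA can be captured by its thiol group. A short label captures RNA made shortly before the tissue was taken. A long label captures what was made over days and has not been degraded, so its composition moves towards that of steady-state RNA. The ratio between a short and a long label is therefore commonly used to read the turnover of transcripts. It also reads any difference in transcription between the periods of labelling. In muscle, transcripts of the contractile apparatus and of energy metabolism are known for long lives, and those of immediate early genes and of many regulators for short ones.

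The libraries held 30933516 to 87375972 reads in the 6 h label and 40385703 to 65442116 in the 4 d label, as recovered from the deposited values. Levels are given in RPKM, that is, reads divided by the kilobases of the gene model and by a library size that the authors scaled. Replicates were close: over the tested genes a library correlated with the others of its group at a mean r of 0.9966 to 0.9983 and with the other group at 0.913 to 0.9256. Neither a batch nor the animal behind each replicate is named in the labels. The spread that the p-values rest on is thus that of these libraries alone, and it may be technical. The labels call the captured RNA that of skeletal muscle stem cells, and Pax7 and the fibre markers do not bear this out. Pax7, the transcription factor that defines satellite cells, stood at 0.402, 0.282, 0.277 and 0.311 RPKM in the 6 h libraries and 0.234, 0.214, 0.205 and 0.13 in the 4 d libraries, against a mean of 17.9 ± 1.2 (SD, n = 4) in isolated stem cells. It was under the 1 RPKM needed for testing. The 32 muscle fibre markers took 15.6 ± 0.132% of reads (SD, n = 4) in the 6 h label and 27.1 ± 0.368% in the 4 d label, against 25.5 ± 0.23% in whole muscle and 0.205 ± 0.0571% in isolated cells. The pulled-down RNA is therefore called by its label length here and not by a cell type. In RNA of a whole tissue, fewer cells of a type and less RNA per cell cannot be told apart.

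Most genes differed between the labels. Genes that reached 1 RPKM in 3 or more of the 8 libraries were tested, 11975 in all, and limma called 10623 of them (88.7%) at an adjusted p (Benjamini-Hochberg) under 0.05. A gene could pass this filter only through the label in which it was high, such as Nr4a3, Map3k6, Ngp and Olfr1124 below. For such a gene the filter itself set the direction. The 6 h label was higher for 6306 genes (52.7%) and lower for 4317 (36.1%), and 1352 genes were not called. By 2-fold or more, 1634 genes (13.6%) were higher and 828 (6.91%) lower. The 4 libraries of one label all lay above the 4 of the other in 10137 genes (84.7%). With calls this common, a count of called members says little by itself, and the sizes below carry the description. Changes are differences of mean log2(RPKM + 0.5), 6 h minus 4 d, so a positive value is a higher level in the 6 h label, and folds are taken on the same scale, which understates the changes of low genes. The median over all tested genes was 0.18. The authors' scaling sets the zero of this scale. With library sizes taken from all reads the median was 0.32 and the higher share of the calls went from 59.36% to 66.56%. With repeat-derived gene models left out of those sizes the median was 0.54 and the share was 76.45%. Lists with a median a little below 0 can therefore change sign with the scaling, as given beside each such list.

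**Figure D1:**
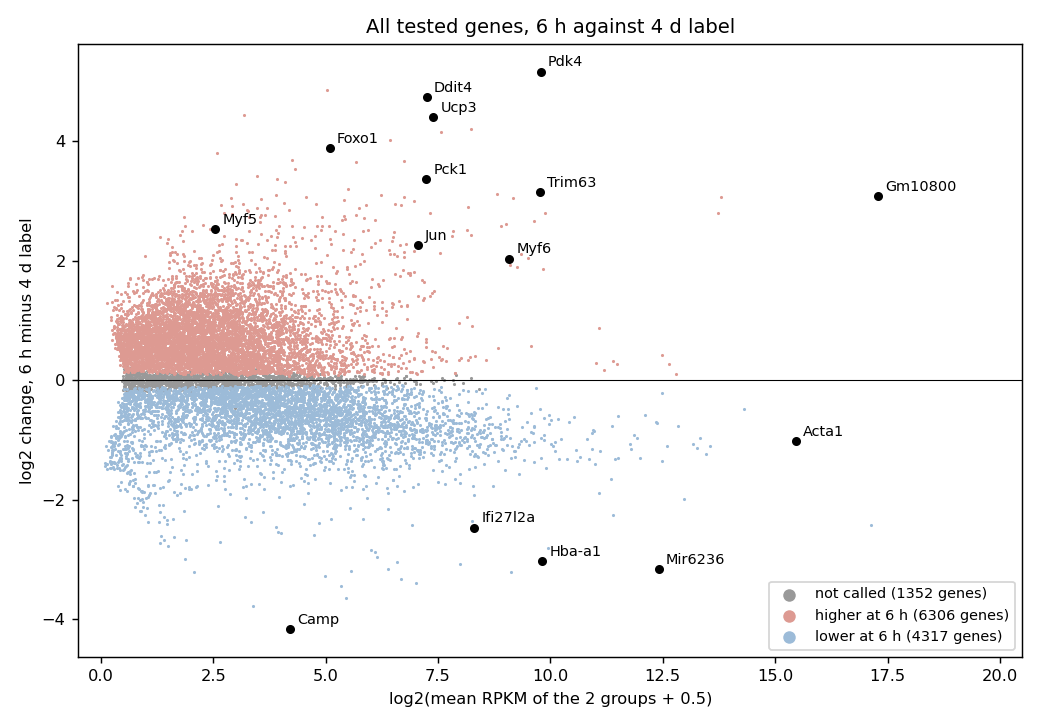
Each point is 1 of 11975 tested genes, with the log2 of the mean RPKM of both labels plus 0.5 on the horizontal axis and the log2 change (6 h minus 4 d label) on the vertical axis. Genes called higher at 6 h are red, lower blue and not called grey. Pdk4 and Ddit4 stand near the top, Camp near the bottom, and the most abundant fibre genes, such as Acta1, lie near -1.

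The largest difference among named genes was that of Pdk4, the kinase that switches off pyruvate dehydrogenase and so spares glucose when fat is burned (mm10 chr6:5483351-5496309, minus strand). It stood at 1612, 1779, 1727 and 1724 RPKM in the 6 h libraries and 56.1, 44.9, 50.7 and 38.7 in the 4 d libraries. Every 6 h library lay far above every 4 d library, 35.9-fold higher (log2 change 5.17 ± 0.0894 SE, adjusted p = 8.1e-13). The 1 d label held 303 ± 64.4 RPKM and whole muscle 79.9 ± 3.52 (SD, n = 4). Ucp3, the mitochondrial uncoupling protein of skeletal muscle (chr7:100472990-100486432), stood at 285, 354, 337 and 309 RPKM in the 6 h libraries and 15.5, 14.4, 14.6 and 14.2 in the 4 d libraries. The groups again lay apart, 21.2-fold higher (log2 change 4.40 ± 0.0602 SE, adjusted p = 2.7e-13). Of the fuel-switch list, genes that turn muscle from glucose to fat, 18 of 21 tested members were higher and 3 lower, and 11 were higher and 0 lower by 2-fold or more, with a median of 1.21. Next to Pdk4 and Ucp3 stood the fat-sensing receptor Ppara (19 against 2.13 RPKM, log2 change 2.88) and Txnip, an inhibitor of glucose uptake (1375 against 215 RPKM, 2.67). The coactivator Ppargc1a was also higher (2.58), as was Angptl4, which blocks lipoprotein lipase (2.52). The 3 lower members were enzymes of mitochondrial beta-oxidation, Acadm (-0.96), Hadha (-0.85) and Acadl (-0.44), while Cpt1a, which admits fatty acids to mitochondria, was higher (1.59). As a group the list took 1.22 ± 0.0808% of reads in the 6 h label and 0.278 ± 0.00397% in the 4 d label (SD, n = 4).

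Ddit4, a brake on the growth kinase mTORC1 that glucocorticoids and lack of oxygen induce (chr10:59949675-59951770), stood at 236, 331, 315 and 290.4 RPKM in the 6 h libraries and 10.5, 9.94, 12.3 and 9.05 in the 4 d libraries. It was 26.7-fold higher (log2 change 4.74 ± 0.104 SE, adjusted p = 4.2e-12), and its 1 d level, 12.2 ± 1.49, was close to that at 4 d. All 17 genes of the glucocorticoid and metallothionein list, targets of the stress hormone receptor and the metal-binding proteins, were higher, 16 of them by 2-fold or more, with a median of 2.18. Sgk1, a kinase that the hormone induces, held 472, 543, 521 and 494 RPKM against 63.6, 67, 73.1 and 66.2, and no library of one label reached the other (log2 change 2.90 ± 0.0514 SE, adjusted p = 9e-13). Tsc22d3, which carries much of the anti-inflammatory action of glucocorticoids, was 6-fold higher (818 against 136 RPKM). Zbtb16, a transcription factor of the same response, was 6.49-fold higher (74.1 against 11 RPKM). Fkbp5, which lowers the receptor's affinity for its hormone, was higher by 1.87 on the log2 scale, and the metallothionein Mt1 by 2.12. The smallest difference on the list was that of Lcn2 (0.33). The share of reads on this list was 0.897 ± 0.0671% at 6 h, 0.204 ± 0.00685% at 1 d, 0.15 ± 0.00705% at 4 d and 0.171 ± 0.00249% in whole muscle (SD, n = 4).

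**Figure D2:**
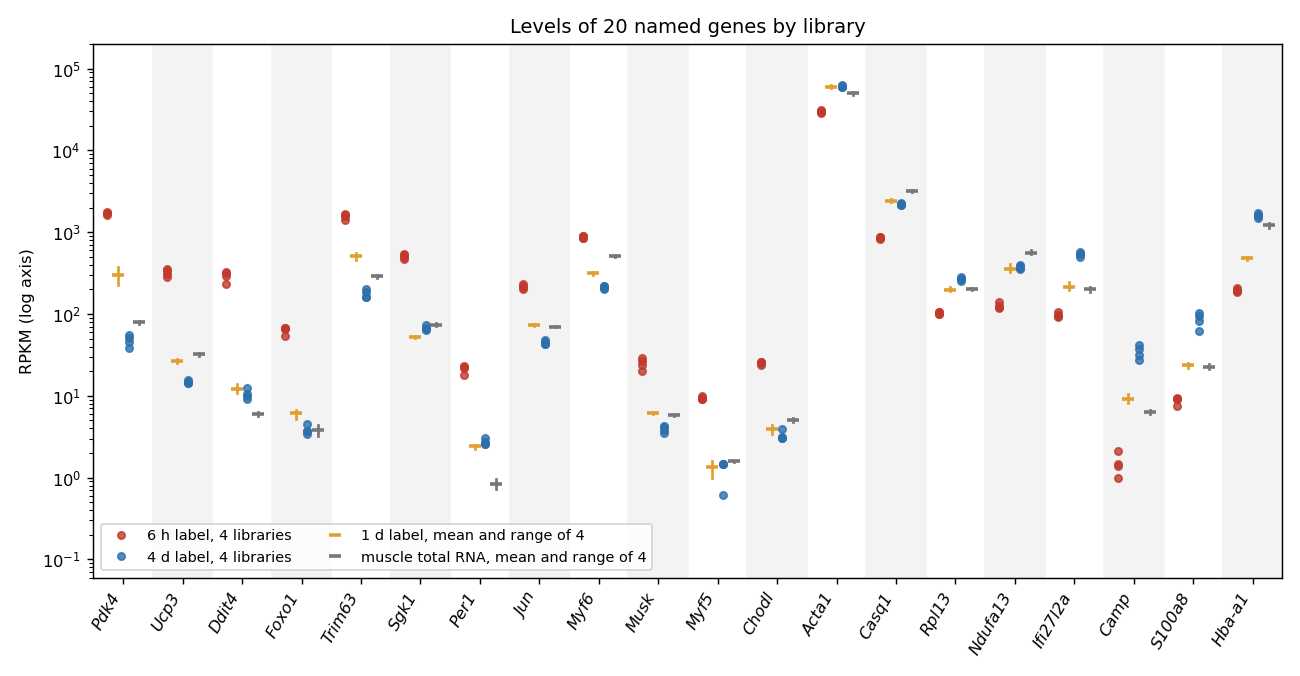
Levels of 20 named genes in RPKM on a log axis. Red and blue points are the 4 libraries of the 6 h and of the 4 d label, and ochre and grey bars give the mean and range of the 1 d label and of whole-muscle RNA. Red points stand above blue ones from Pdk4 to Chodl and below them from Acta1 to Hba-a1.

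Genes of muscle wasting went both ways and included large rises. Foxo1, the transcription factor that drives atrophy when insulin signalling is low, stood at 53.9, 67.3, 65.6 and 66.9 RPKM in the 6 h libraries and 3.41, 3.67, 4.48 and 3.7 in the 4 d libraries. Replicate 1 of the 6 h label was the lowest of its group and far above each 4 d library, and the label means differed 14.8-fold (log2 change 3.89 ± 0.0827 SE, adjusted p = 3.2e-12). Trim63, the ubiquitin ligase MuRF1 that marks contractile proteins for breakdown, held 1418, 1662, 1616 and 1589 RPKM against 186, 161, 199 and 162. It was 8.87-fold higher, with groups far apart (log2 change 3.15 ± 0.0709 SE, adjusted p = 4.7e-12). Of the FoxO and atrophy list 12 of 19 tested members were higher and 6 lower, 9 of the higher ones by 2-fold or more, with a median of 0.39. Klhl38 (2.14), the ligase subunits Fbxo30 (1.83) and Fbxo32 (1.27), the insulin receptor substrate Irs2 (1.27) and Foxo3 (1.62) were higher. Foxo4 (-0.99), Fbxo31 (-0.95), Irs1 (-0.74) and myostatin (Mstn, -0.15) were lower.

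Clock genes were mostly higher in the 6 h label, 15 of 18 tested, against 3 lower, with a median of 0.83. Per1, a repressor of the clock that is also a glucocorticoid target and so counts under both lists, stood at 17.9, 22.5, 23.2 and 21.8 RPKM against 2.72, 2.56, 3.01 and 2.55. All 6 h libraries exceeded all 4 d libraries, 6.79-fold higher (log2 change 2.76 ± 0.0759 SE, adjusted p = 1.5e-11). Ciart, another repressor, was 7.78-fold higher (15.3 against 1.53 RPKM), and Per2 (2.15), Cry2 (1.90), Nr1d2 (1.83), Dbp (1.76) and Nr1d1 (1.40) followed. The activators Arntl and Clock differed less, by 0.37 and 0.41. Lower members included Cry1 (-0.51) and Bhlhe41 (-0.27), and the lowest change on the list was -1.31. By 2-fold or more, 8 members were higher and 1 was lower. The labels give no time of day for the harvest.

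Immediate early genes, which cells transcribe within minutes of a stimulus and whose mRNAs are short-lived, were higher in the 6 h label in 22 of 28 tested members and lower in 3, with a median of 1.44. The list has 33 genes in the table, and 5 of them, such as Fosb and Egr3, were too low to test. Jun, a subunit of the AP-1 transcription factor, stood at 201, 234, 223 and 214 RPKM in the 6 h libraries and 48, 42.7, 46.1 and 43.6 in the 4 d libraries (log2 change 2.26 ± 0.0507 SE, adjusted p = 4.7e-12). Fos, its partner, held 15.6, 15.2, 15.7 and 15.1 RPKM against 4.67, 5.1, 4.43 and 4.32 (log2 change 1.63 ± 0.0487 SE, adjusted p = 2.7e-11). Neither gene's groups overlapped, and the level of Fos in both labels was far under the 876 RPKM of isolated cells. Egr1 differed less, with 4.75, 5.14, 4.94 and 4.22 against 2.91, 2.75, 2.58 and 2.65 RPKM (log2 change 0.71 ± 0.0603 SE, adjusted p = 2.3e-07). The nuclear receptor Nr4a3 was among the 15 largest rises (10.7 against 0.297 RPKM, 13.9-fold higher). The Kruppel-like factor Klf6 (2.45) and the matrix-associated early genes Cyr61 (2.08) and Ctgf (2.32) followed. The lower members were Srf (-1.40), Klf2 (-0.70) and Jund (-0.46), and Ier2, Nr4a2 and Cebpb were not called.

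Genes that end such responses were higher too. Of the list of mRNA decay and feedback genes 27 of 35 tested members were higher and 5 lower, 19 of the higher ones by 2-fold or more and none of the lower, with a median of 1.03. Zfp36, the protein that binds AU-rich elements and has the mRNA degraded, stood at 74, 92.9, 84.2 and 78.8 RPKM against 15.8, 15.8, 16.1 and 15.3 (log2 change 2.35 ± 0.0584 SE, adjusted p = 8.1e-12). Dusp1, a phosphatase that switches off stress kinases, held 130.5, 159.8, 147 and 155 RPKM against 29.4, 29.5, 29.7 and 27.7 (log2 change 2.33 ± 0.056 SE, adjusted p = 6.6e-12), and it stands on the early list as well. Neither gene's groups overlapped. Gadd45g, a growth-arrest gene, had 505 against 93.3 RPKM (2.43), and Nfkbia, the inhibitor of NF-kB, 164 against 45.1 (1.85). The lower members were Socs1 (-0.90), Dusp10 (-0.87), Smad6 (-0.79), Dusp2 (-0.76) and Dusp8 (-0.59).

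Because AU-rich elements are the best known sequence mark of short-lived mRNAs, the 3′ UTRs were searched for the nonamer that Zfp36 binds, TTATTTATT, on the sense strand. The UTRs are those of the longest protein-coding GENCODE M21 transcript of each gene, and 11087 tested genes had one. Of 158 named genes with a UTR, the windows below show the first match in 10, picked as examples. Each has 10 bases on each side, 5′ to 3′, the nonamer in capitals. The first 8 genes were higher in the 6 h label and the last pair lower, a split that follows from the choice. Ppp1r15a, Nop58, Cmpk1 and Jag1, all higher, held a match too and are not shown.
Ell2: aaactaaagcTTATTTATTtaaaattcca
Chac1: acttgaacctTTATTTATTgcaccatgtt
Trp53inp1: acttccccttTTATTTATTtgttttctaa
Per1: ggggctgcacTTATTTATTtgggagagac
Zfp36: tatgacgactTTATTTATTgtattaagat
Dusp1: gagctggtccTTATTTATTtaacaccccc
Nfkbia: ggaccacgttTTATTTATTgtgcttttga
Fos: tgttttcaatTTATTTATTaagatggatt
Pfkm: aaaataagctTTATTTATTtctttgtgat
Chrna1: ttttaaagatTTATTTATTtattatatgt
On GRCm38 (mm10) the windows lie at chr13:75770825-75770853 (plus strand) for Ell2, chr2:119353773-119353801 (plus strand) for Chac1, chr4:11171739-11171767 (plus strand) for Trp53inp1, chr11:69109686-69109714 (plus strand) for Per1, chr7:28376951-28376979 (minus strand) for Zfp36, chr17:26506159-26506187 (minus strand) for Dusp1, chr12:55489608-55489636 (minus strand) for Nfkbia, chr12:85477103-85477131 (plus strand) for Fos, chr15:98132339-98132367 (plus strand) for Pfkm and chr2:73564479-73564507 (minus strand) for Chrna1. The nonamer stood in 11.1% of 1476 UTRs of genes higher by 2-fold or more, in 4.91% of 652 UTRs of genes lower by 2-fold or more, and in 7.69% of all 11087. Their lengths differed, with medians of 1759, 504.5 and 1124 bases. Among UTRs of 1000 to 2000 bases the shares were 8.87%, 6.54% and 7.40%, and among those of 2000 to 4000 bases 14.3%, 10.8% and 12.9%. Per 10 kb of UTR there were 0.633 matches in the higher genes, 0.759 in the lower and 0.647 in all. Under 500 bases they were 3.18%, 0.932% and 1.63%, from 500 to 1000 bases 5.62%, 6.82% and 4.47%, and from 4000 bases 22.5%, 29.4% and 23.1%. The share was thus larger in the higher than in the lower genes in 3 of 5 ranges of length and smaller in 2. Of the largest changes, 2 of the 14 largest rises with a UTR and 0 of the 8 largest falls with one held a match. A match is only a string of letters and not a measured site.

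Other genes among the 15 largest rises had diverse roles. Odf3l2, named for an outer dense fibre protein, stood at 322, 390.5, 373 and 355 against 19.6, 19.7, 20.8 and 18.4 RPKM (4.16). Ell2, an elongation factor of RNA polymerase II, held 136, 193, 169 and 151 against 9.43, 9.93, 10.3 and 8.17 RPKM (4.02). Coq10b, which serves coenzyme Q, had 85.8, 104, 98 and 90.6 against 6.78, 6.73, 7.73 and 6.85 RPKM (3.66). In all of these the lowest 6 h library lay above the highest 4 d library by an order of magnitude. The amino acid transporter Slc7a8 (3.70), the transcription factor Sox4 (3.43), the stress kinase Map3k6 (3.29), Vcp-rs, a copy related to Vcp that may share its reads (3.38), and Pck1, the rate-setting enzyme of gluconeogenesis and of glycerol synthesis in fat cells (3.36), completed the set with genes named above and below. Map3k6 passed the filter by its 6 h level, which set its direction. In 14 of the 15 largest rises the mean of the 1 d label lay between those of the 6 h and 4 d labels. In 14 it was nearer, on the log2 scale, to the 4 d label. In 14 of the 15 the level in whole-muscle RNA was within 2-fold of the 4 d label. The gene models 8430408G22Rik (572 against 32.3 RPKM) and Gm27342 (62.9 against 1.71 RPKM), known by number only and singled out after their values were seen, differed by 4.21 and 4.86.

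Stress programmes were higher in part. Chac1, which degrades glutathione and is induced when amino acids run short, stood at 190.3, 197, 199.9 and 203 RPKM against 16.9, 14.2, 14.6 and 14.7 (log2 change 3.67 ± 0.0491 SE, adjusted p = 2.7e-13). The groups lay far apart, but of the integrated stress response list 11 of 16 tested members were higher and 4 lower, with a median of 0.45, and its regulators Atf4 and Ddit3 differed by 0.74 and -0.24. Among p53 targets 13 of 18 were higher and 3 lower (median 0.49), led by Trp53inp1 (20.7 against 2.1 RPKM, 3.03) and the cell-cycle brake Cdkn1a (149 against 34 RPKM, 2.11), while Ccng1 was lower (-0.96). Heat shock genes, which rise when proteins unfold, divided evenly, with 9 of 18 higher, 8 lower and a median of 0.20. The inducible chaperone Hspa1a stood at only 3.61, 3.23, 3.83 and 3.6 RPKM against 1.89, 2.04, 1.89 and 1.79 (log2 change 0.76 ± 0.0571 SE, adjusted p = 6.7e-08), far under the 736 of isolated cells, and it shares reads with its near-identical copy Hspa1b. The co-chaperone Dnajb1 was higher (1.02), and the muscle chaperone Cryab (-1.07) and the mitochondrial Hspa9 (-0.82) were lower.

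Signalling and nuclear regulators leaned towards the 6 h label. Of the Notch pathway, which keeps satellite cells quiescent, 13 of 17 tested members were higher, none was lower and the median was 0.73. The receptor Notch2 (1.25), the ligand Jag1 (2.81 against 1.01 RPKM, 1.13), the protease Adam10 (1.10), the nuclear effectors Rbpj (8.84 against 3.67 RPKM, 1.17) and Maml1 (1.18) and the target Hey1 (1.12) were higher by 2-fold or more. The target Hes1 was not called (-0.08). Of 282 tested Zfp genes, named as zinc finger proteins, 228 were higher and 29 lower, with a median of 0.65; 66 others were too low to test. Zfp281 (11.1 against 3.02 RPKM) and Zfp207 (42.4 against 13.5) were higher by 1.72 and 1.61, whereas Zfp106, abundant in muscle, was lower (14.4 against 38.3 RPKM, -1.38). Of the cell cycle genes 15 of 18 tested were higher (median 0.61), for example the replication clamp Pcna (15.1 against 9.94 RPKM), and 6 others were too low to test. Ccna2 (1.36 against 0.409 RPKM) was under 1 RPKM on average at 4 d. It passed the filter by its 6 h level, which set its direction. Among RNAs kept in the nucleus or hosting small nucleolar RNAs, 10 of 12 were higher (median 0.80). Neat1, the scaffold of paraspeckles, held 88, 100.1, 97.7 and 97 against 39.5, 37.5, 37.1 and 38 RPKM, and no 6 h library came near the 4 d range (log2 change 1.32 ± 0.0422 SE, adjusted p = 4.4e-11). Malat1 was higher by 1.07 and the microRNA host Mir22hg by 2.51, while Meg3 was lower (-0.41).

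**Figure D3:**
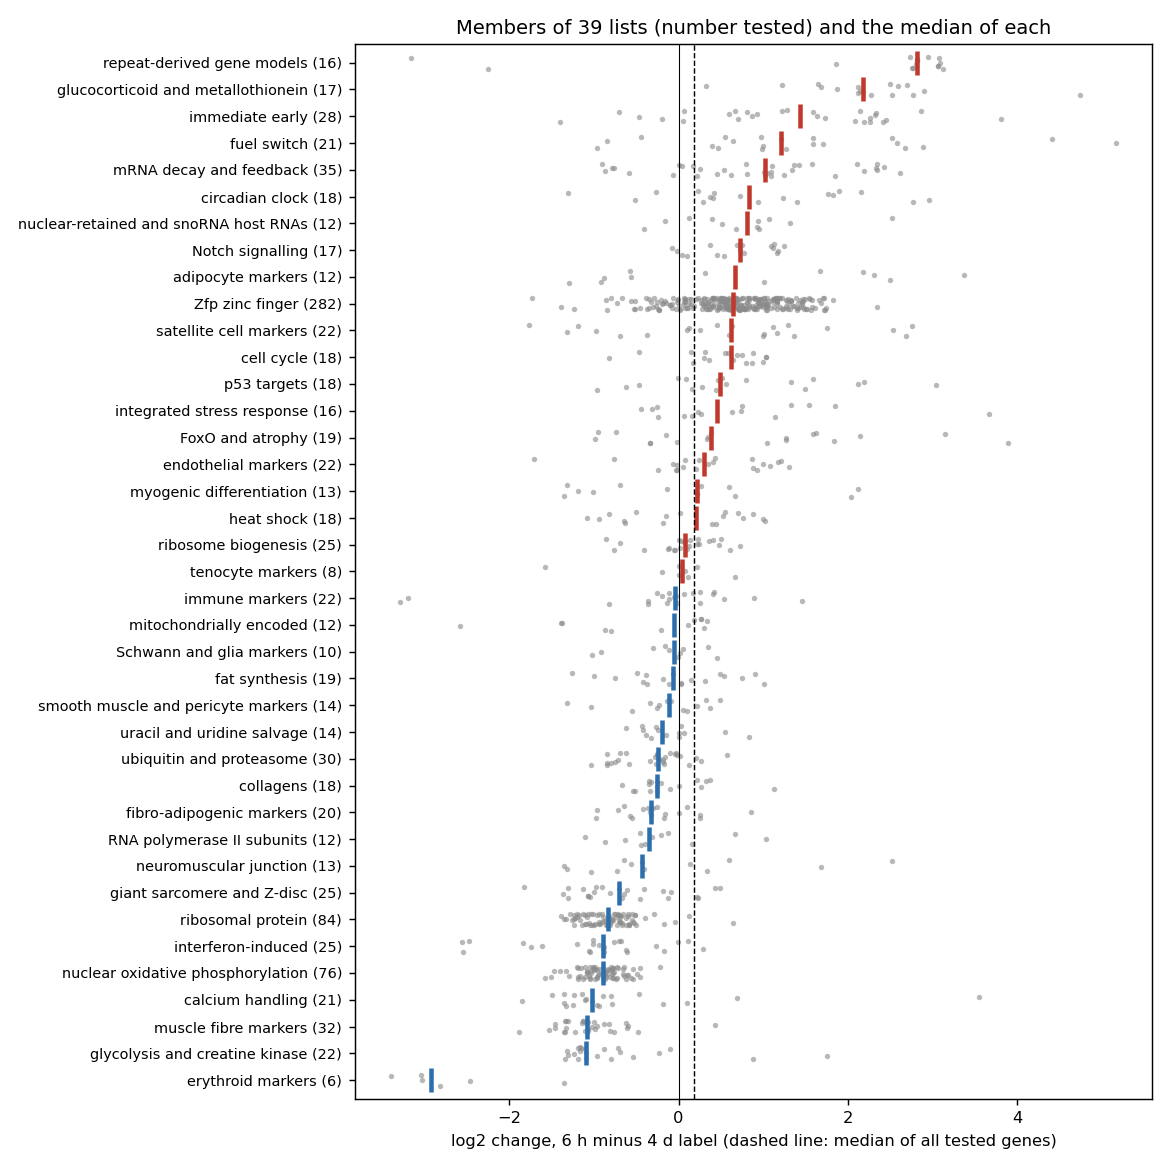
Grey points are the tested members of 39 gene lists, placed by their log2 change (6 h minus 4 d label), and the upright bar is the median of each list, red above 0 and blue below. The dashed line is the median of all tested genes, 0.18. Lists of regulators lie to the right, with the glucocorticoid list at 2.18. The lists of fibre markers, sarcomere and Z-disc, calcium handling, glycolysis, nuclear oxidative phosphorylation and ribosomal protein genes lie between -0.70 and -1.10. Other metabolic lists do not, such as fuel switch (1.21) and fat synthesis (-0.06).

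The contractile and metabolic machinery of the fibre was lower in the 6 h label. Of 32 fibre markers 1 was higher and 31 were lower, 20 of these by 2-fold or more, with a median of -1.08. Acta1, the skeletal muscle actin (chr8:123891767-123894736), stood at 30196, 28765, 29499.5 and 31295 RPKM in the 6 h libraries and 59769, 58950.3, 61168 and 62421 in the 4 d libraries. The 6 h libraries were all lower, 2.02-fold lower (log2 change -1.02 ± 0.0528 SE, adjusted p = 2.2e-09), though the gene was not called when all groups shared 1 fit. Examples are Tnni1 (slow troponin I, 36.9, 32.7, 35.1 and 35.6 against 138, 125, 127 and 133 RPKM, -1.88) and Myh7 (slow myosin, 7.96 against 23.9 RPKM, -1.53), and the fast myosin Myh1 (191 against 449 RPKM, -1.23). Tcap, the titin cap, was the member that was higher (0.43). Of 25 giant sarcomere and Z-disc genes 20 were lower (median -0.70), among them Xirp2 (24.6 against 88.4 RPKM, -1.82), the fast alpha-actinin Actn3 (-1.30) and the giant protein nebulin (Neb, -1.12). Dmd, the gene of dystrophin, was higher instead, at 6.04, 6.88, 6.81 and 6.31 against 4.68, 4.45, 4.51 and 4.37 RPKM (log2 change 0.49 ± 0.0489 SE, adjusted p = 1.1e-06), with no overlap.

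Calcium handling genes followed the fibre markers, 18 of 21 being lower (median -1.02). The release channel Ryr1 (25 against 63.6 RPKM, -1.33), its voltage sensor Cacna1s (40.8, 41.4, 40.3 and 39 against 114, 113, 114 and 116, -1.49) and the store protein Casq1 (861 against 2203, -1.36) were all lower. Pln, phospholamban, the inhibitor of the calcium pump in heart and slow fibres, went the other way, at 34.3, 38.6, 37.5 and 35.1 against 2.55, 2.69, 2.78 and 2.62 RPKM. It was 11.7-fold higher, with every 6 h library above every 4 d library (log2 change 3.54 ± 0.0457 SE, adjusted p = 2.7e-13). The related inhibitor Sln was higher as well (0.69), as was Jph1 (0.10). Glycolysis and creatine kinase genes were lower in 20 of 22 cases (median -1.10), for example the phosphofructokinase Pfkm (669.7 against 1526 RPKM, -1.19), Pgk1 (-1.15) and the mitochondrial creatine kinase Ckmt2 (-1.11). The higher members were Pgm1 (1.75) and hexokinase 2 (Hk2, 0.88), the first step of glycolysis.

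All 76 nuclear genes of oxidative phosphorylation were lower, with changes from -1.57 to -0.22 and a median of -0.89. Ndufa13, a subunit of complex I, stood at 139, 122, 119.6 and 126 RPKM against 393, 358, 368 and 389.9 (log2 change -1.57 ± 0.0493 SE, adjusted p = 3.8e-11), and Sdha, of complex II, at 108, 109.7, 108 and 105 against 227, 229, 235 and 238 (log2 change -1.11 ± 0.0306 SE, adjusted p = 1.6e-11). In both the 4 d libraries were all higher. The list took 2.62 ± 0.0722% of reads at 6 h and 4.38 ± 0.0788% at 4 d (SD, n = 4). Of 84 ribosomal protein genes 81 were lower, 25 by 2-fold or more, with a median of -0.83. Rpl13 held 106, 100, 99.9 and 107 RPKM against 265, 251, 266 and 279.7, without overlap (log2 change -1.36 ± 0.0403 SE, adjusted p = 2.7e-11), and the muscle-specific Rpl3l 177 against 364 (-1.04). Rpl7l1 was the member that was higher (0.65), and many ribosomal protein genes have processed copies that can share their reads. The share of reads on ribosomal protein genes was 0.714 ± 0.0178% at 6 h and 0.706 ± 0.0119% in whole muscle, against 1.16 ± 0.0341% at 4 d. By this share the 4 d label stood further from whole muscle than the 6 h label. Repeat-derived gene models took 18.5% of reads at 6 h against 0.261% in whole muscle, which lowers every other share at 6 h. The near equality of the 6 h label and whole muscle therefore depends on these models. Factors that build ribosomes did not share the lower levels of the ribosomal protein genes. Of 25, 11 were higher and 6 lower (median 0.08), with Ncl higher (0.48) and Bop1 lower (-0.86).

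**Figure D4:**
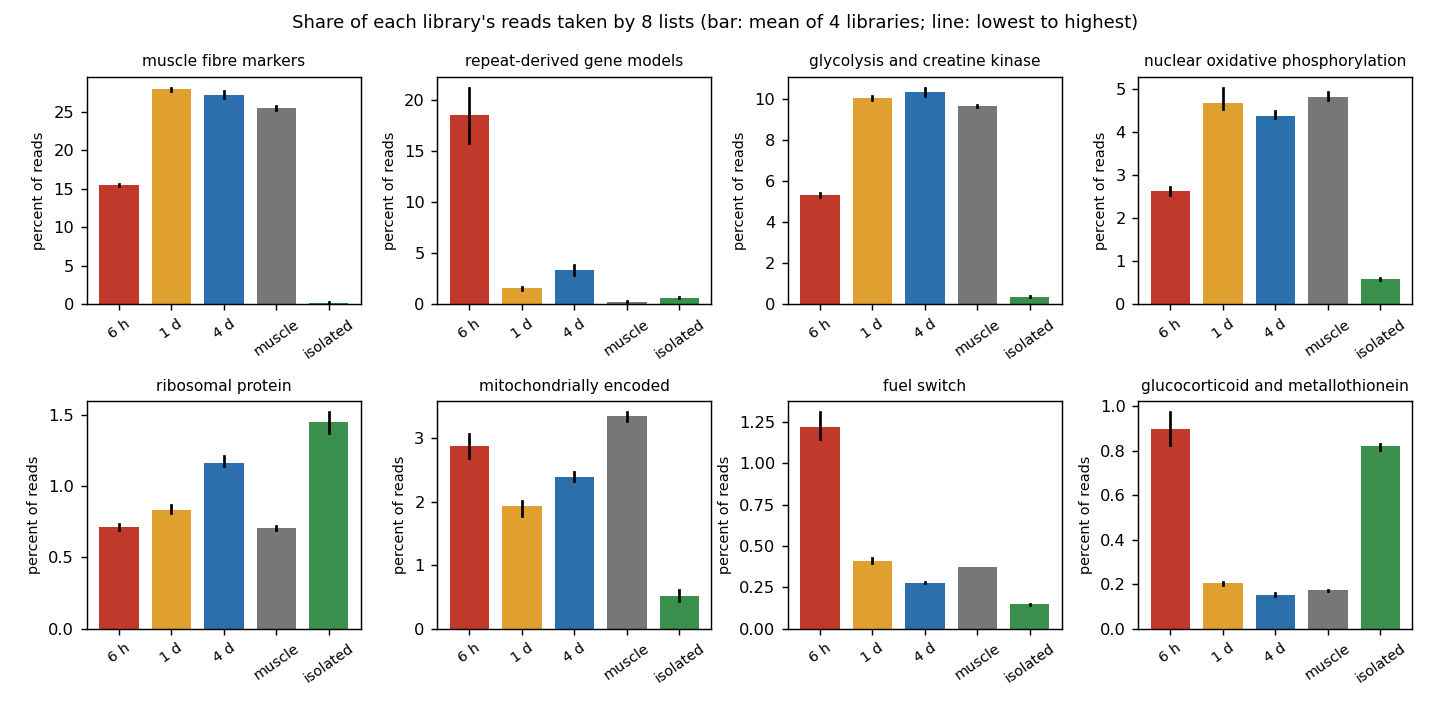
Share of all reads, in percent, taken by 8 gene lists in the 6 h, 1 d and 4 d labels, whole-muscle RNA and isolated stem cells. Bars are means of 4 libraries and black lines run from the lowest to the highest. Fibre, glycolysis and oxidative phosphorylation genes have their lowest labelled share at 6 h, and repeat-derived gene models their highest.

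Genes of the fibre's own control did not all follow its structural genes. Myf6, the myogenic factor of mature fibres, stood at 887, 856, 859.7 and 894 RPKM in the 6 h libraries and 217, 209.9, 219 and 203 in the 4 d libraries, 4.11-fold higher and without overlap (log2 change 2.04 ± 0.0345 SE, adjusted p = 8.1e-13). Myod1, which commits cells to the muscle fate, went the opposite way, at 11.5, 10.9, 12.4 and 11.5 against 26.9, 27.4, 26.4 and 27.1 RPKM, again without overlap (log2 change -1.19 ± 0.0407 SE, adjusted p = 7.3e-11). The intermediate filament gene Des (674 against 1674 RPKM, -1.31) and Mef2c (-1.01) were lower. Of the myogenic differentiation list 7 of 13 tested members were higher and 5 lower, with a median of 0.21 that was -0.14 without the filter on low genes and -0.27 with a filter of 50 reads. At the neuromuscular junction the kinase that organises the synapse, Musk, held 20.2, 29.2, 26.8 and 24 RPKM against 3.8, 3.53, 4.13 and 4.23 (log2 change 2.52 ± 0.0948 SE, adjusted p = 1.5e-10), and its activator Dok7 17.3 against 5.06 (1.68). Their partners in receptor clustering were lower, Rapsn with 18.4, 16.8, 18.5 and 18.2 against 43.8, 44.6, 45.9 and 48.4 RPKM (log2 change -1.32 ± 0.0425 SE, adjusted p = 4.6e-11) and the acetylcholine receptor subunit Chrna1 with 3.01 against 8.44 (-1.35). The junction list thus held 5 higher and 8 lower members of 13 (median -0.43).

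Satellite cell markers were higher in 15 of 22 tested members and lower in 6, with a median of 0.62; Pax7, Megf10 and Tenm4 were too low to test. The share of reads on the list went the other way, 0.438 ± 0.0109% at 6 h against 0.72 ± 0.00461% at 4 d (SD, n = 4), without overlap. Such a sum weighs abundant members most, among them Des, which was lower. Repeat-derived gene models also took 18.5% of reads at 6 h against 3.3% at 4 d, which lowers every other share at 6 h. Myf5, the myogenic factor of quiescent and early activated satellite cells, stood at 10.1, 9.06, 9.3 and 9.16 RPKM in the 6 h libraries and 1.48, 1.47, 1.48 and 0.611 in the 4 d libraries (log2 change 2.53 ± 0.157 SE, adjusted p = 1.1e-08). Replicate 4 of the 4 d label was low against its group, and the 6 h libraries exceeded all others. Chodl, which isolated stem cells express at 396 RPKM, held 25.8, 25.2, 23.8 and 25.8 RPKM against 3.16, 3.92, 3.08 and 3.08 (log2 change 2.76 ± 0.0655 SE, adjusted p = 6.2e-12), and the surface proteoglycan Sdc4 118 against 17.9 (2.68). Both groups lay apart, and Cxcr4 (1.75), Calcr (1.00) and Vcam1 (1.00) were higher too. The lower markers included the laminin receptor subunit Itga7 (7.89 against 28 RPKM, -1.76), Cdh15 (-0.98), Myod1 and Des, which fibres also express. Which cells the RNA of the higher and of the lower markers came from was not tested. Over all tested genes, the 741 that were 4-fold or more higher in isolated cells than in whole muscle had a median change of 0.54, the 8662 within that fold 0.33, and the 2572 that were 4-fold or more higher in muscle -0.53. The first of these sets took 2.43 ± 0.137% of reads at 6 h and 2.53 ± 0.254% at 4 d (SD, n = 4). These shares lay within an SD of each other. Both lay above the 0.713 ± 0.0099% of whole muscle and far under the 24.7 ± 0.276% of isolated cells. Levels in whole muscle and isolated cells defined the set. Beside the satellite cell values, markers of other cell types also differed, as given next, and their part in the result was not tested.

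Genes of blood cells were among the largest falls. All 6 tested erythroid markers were lower, all by 2-fold or more, with a median of -2.92. The globin gene Hba-a1 stood at 191, 207, 198 and 186 RPKM in the 6 h libraries and 1715, 1487, 1571 and 1637 in the 4 d libraries, 8.18-fold lower (log2 change -3.03 ± 0.0482 SE, adjusted p = 5.8e-13). Hbb-b1 held 246, 257, 247 and 238 against 1839, 1629, 1715 and 1777 RPKM (log2 change -2.81 ± 0.0423 SE, adjusted p = 4.8e-13). No library of one label reached the other, and since the Hba and Hbb genes have near-identical copies, the split between Hba-a1 and Hba-a2 (-3.39) or Hbb-b1 and Hbb-b2 (-3.04) is uncertain. The 4 d label also exceeded whole muscle (1219 RPKM for Hba-a1) and the 1 d label (479). Camp and Ngp, granule proteins of neutrophils, were among the 15 largest falls, with Camp at 1.46, 0.991, 1.38 and 2.09 against 27.6, 31.6, 37.4 and 42.2 RPKM, 17.9-fold lower (log2 change -4.16 ± 0.155 SE, adjusted p = 1.4e-10). Ngp had 1.38, 0.68, 0.681 and 0.957 against 13.1, 18.8, 21.4 and 23.2 RPKM (log2 change -3.78 ± 0.177 SE, adjusted p = 8.6e-10). It passed the filter by its 4 d level, which set its direction. The neutrophil genes S100a8 (8.75 against 85.6 RPKM, -3.20) and S100a9 (-3.28) followed, and in each of these the 4 d level lay above that of whole muscle.

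Interferon-induced genes, the antiviral programme, were lower in 22 of 25 and higher in 1, 11 by 2-fold or more, with a median of -0.89. Ifi27l2a stood at 105, 91.2, 97.4 and 93.4 RPKM in the 6 h libraries and 536, 502, 538 and 573 in the 4 d libraries (log2 change -2.47 ± 0.05 SE, adjusted p = 2.4e-12). Bst2, which tethers budding virus, had 17.9, 15.9, 17.6 and 17.9 against 53.1, 61.3, 66.6 and 72.7 RPKM (log2 change -1.84 ± 0.08 SE, adjusted p = 4.7e-10), and Irf7, the factor that amplifies the response, 3.8, 4.27, 4.5 and 3.99 against 12.7, 14.9, 16.1 and 16.3 (log2 change -1.74 ± 0.0745 SE, adjusted p = 4.2e-10). In all of them the 4 d libraries were the higher ones, and the 1 d means of Bst2 (20.7) and Irf7 (2.99) stood near the 6 h level. Isg15 (-2.56) and Ifit3 (-2.54) were lower by more still, and Irf1 was the higher member (0.29). The 26 genes of the list, with the untested Mx1, together took 0.0343 ± 0.00138% of reads at 6 h, 0.032 ± 0.00138% at 1 d, 0.0709 ± 0.00454% at 4 d and 0.0454 ± 0.00164% in whole muscle (SD, n = 4). The immune marker list as a whole did not share this: 8 of 22 were higher and 9 lower, with a median of -0.04 that became 0.12 and 0.36 under the sizes from all reads without and with the repeat-derived models left out. The macrophage receptor Cd163 was higher (6.26 against 1.97 RPKM, 1.45) and the adaptor Tyrobp lower (-0.82).

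Marker lists of the other cell types of muscle had medians between -0.32 and 0.66. Of 22 endothelial markers 13 were higher and 3 lower (median 0.30), with Esam (1.17), Ptprb (1.08) and the abundant Fabp4 (2821 against 1535 RPKM, 0.88) higher and Plvap lower (7.08 against 24.1, -1.70). Adipocyte markers went both ways, 7 higher and 5 lower of 12 (median 0.66). The higher ones included Pck1 at 259.6, 284, 279 and 279 against 30.2, 25.6, 25.2 and 24.5 RPKM (log2 change 3.36 ± 0.0587 SE, adjusted p = 8.1e-13), Cidec (2.17), Plin4 (2.31) and the lipase gene Lipe (1.66), and the lower ones Cfd (-1.30), Cidea (-0.87) and the adiponectin gene Adipoq (-0.56). Fibro-adipogenic markers had 15 of 20 lower and 3 higher, and their median of -0.32 became 0.08 without the repeat-derived models. Collagens (11 of 18 lower, 5 higher) had a median of -0.25 that became 0.11 in the same way, and Col6a1 (-0.35) changed sign with it, whereas Col5a1 was higher (1.13). Smooth muscle and pericyte markers had 4 higher and 6 lower of 14 (median -0.11, 0.19 without repeat-derived models), with Smtn (-1.03) and Tagln (-0.55) lower and Cspg4 higher (0.49). Of 10 tested Schwann and glia markers 2 were higher and 4 lower (median -0.06, 0.27 without repeat-derived models). Of 8 tendon markers 3 were higher and 2 lower (median 0.04), and the tendon factor Scx was lower (5.46 against 17.1 RPKM, -1.58).

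Lists of general cell functions had small medians. Fat synthesis genes were 7 higher and 9 lower of 19 (median -0.06, 0.28 without repeat-derived models). Within them Me1 (-1.26), the master regulator Srebf1 (17.6 against 35.8 RPKM) and Fasn (-0.74) were lower, while sterol-regulated Insig1 was higher (0.75). Proteasome and ubiquitin genes were lower in 22 of 30 (median -0.25, 0.16 without repeat-derived models), for example Psmb7 (155 against 317 RPKM, -1.03). RNA polymerase II subunits were lower in 9 of 12 (median -0.35, 0.05 without repeat-derived models). The large subunit gene Polr2a was higher, at 7.52, 8.27, 8.21 and 8.5 against 3.44, 3.81, 3.74 and 3.87 RPKM (log2 change 1.03 ± 0.0503 SE, adjusted p = 1.2e-09), as was Polr2d (0.66), and the small subunits Polr2i (-1.11) and Polr2e (-0.63) were lower. Genes of uracil and uridine salvage, the route by which the analogue enters RNA, were higher in 2 and lower in 8 of 14 (median -0.19, 0.15 without repeat-derived models). The uridine kinases differed in sign, Uck1 being higher (0.55) and Uck2 lower (-0.63), and the mouse's own Uprt gene was under the test's minimum.

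Gene models of repeated sequence took a larger share of reads in the 6 h label. Gm10800, a gene model of repeated sequence (chr2:98666547-98667301), stood at 306472, 237315, 260859 and 345385 RPKM in the 6 h libraries and 40942, 36566, 31512 and 26646 in the 4 d libraries (log2 change 3.09 ± 0.141 SE, adjusted p = 7.3e-10). The 16 models of this list took 18.5 ± 2.45% of reads at 6 h, 1.54 ± 0.11% at 1 d, 3.3 ± 0.422% at 4 d and 0.261 ± 0.0139% in whole muscle (SD, n = 4), and 14 were higher with a median of 2.81. The exceptions were Mir6236 (1122, 1014, 1021 and 1191 against 11867, 8658, 9447 and 9183 RPKM, -3.16) and Lars2 (935 against 4443 RPKM, -2.25), models on which ribosomal RNA reads can be placed. Gm42418 (3239.7 against 12948 RPKM, -1.99) and Gm23935 (46349 against 242512 RPKM, -2.42), singled out after their values were seen, were lower as well. Reads of such models can come from many copies, so their values do not measure 1 locus.

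RNA of the mitochondrial genome went both ways. Of 12 mitochondrially encoded protein genes 6 were higher and 6 lower (median -0.05, 0.36 without repeat-derived models). The largest fall was ND4L, with 13.1, 5.24, 5.95 and 6.13 RPKM against 49.8, 47.7, 40 and 42.9 (log2 change -2.58 ± 0.212 SE, adjusted p = 1.6e-07), and COX3 had 13.4, 9.92, 11.5 and 10.5 against 31.1, 32.7, 28.4 and 29.2 (log2 change -1.39 ± 0.0781 SE, adjusted p = 4.4e-09). ND2 (0.33), ND5 (0.30) and CYTB (0.27) were higher. The transfer RNA genes mt-Tf, mt-Tt, mt-Tv, mt-Tq, mt-Th and mt-Ts2 were among the 15 largest falls. For example, mt-Tv stood at 34.8, 13.4, 14.1 and 14.3 RPKM in the 6 h libraries and 232, 180.5, 136 and 186 in the 4 d libraries (log2 change -3.33 ± 0.261 SE, adjusted p = 9.9e-08), and replicate 1 was the highest of the 6 h label for mt-Tt, mt-Tv, mt-Th and ND4L alike. These genes are very short and lie against others on the same transcripts, so reads that span a border may be placed on either. Their 6 h values rest on few reads, 27 to 66 per library for mt-Tv and 5 to 24 for mt-Tf. The remaining gene of the 15, Olfr1124, an olfactory receptor gene, had 0.459, 0.242, 0.452 and 0.156 against 5.76, 6.43, 5.88 and 5.83 RPKM (-2.99) and 0.017 in whole muscle.

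Across genes, the change went with the length of the gene model and with the uridine content of its transcript. The median was -0.66 for 806 gene models under 1 kb, -0.18 for 1982 of 1 to 2 kb, 0.16 for 4210 of 2 to 4 kb, 0.36 for 3840 of 4 to 8 kb and 0.55 for 1137 of 8 kb or more. Of the shortest, 28.7% were lower by 2-fold or more, and of the longest 1.67%. Uridine content was taken from the longest protein-coding GENCODE M21 transcript (or the longest of any kind), which 11880 tested genes had. With genes in 5 groups of equal size by this content, the median change was -0.17, 0.03, 0.21, 0.32 and 0.50 from the lowest content (8.57 to 21.5% uridine) to the highest (27.8 to 47.5%). The share of genes higher by 2-fold or more was 5.6% in the lowest group, 7.91% in the next and 24.7% in the highest. Length and uridine content were themselves related (Spearman's rho across genes 0.176), and their rho with the change was 0.312 and 0.28, values across genes, which are not independent replicates. Within each range of length the group of highest uridine content had a higher median than the lowest, for instance -0.43 and 0.19 among gene models of 1 to 2 kb and 0.07 and 0.59 among those of 4 to 8 kb. What part length and uridine content play in the list values was not tested.

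**Figure D5:**
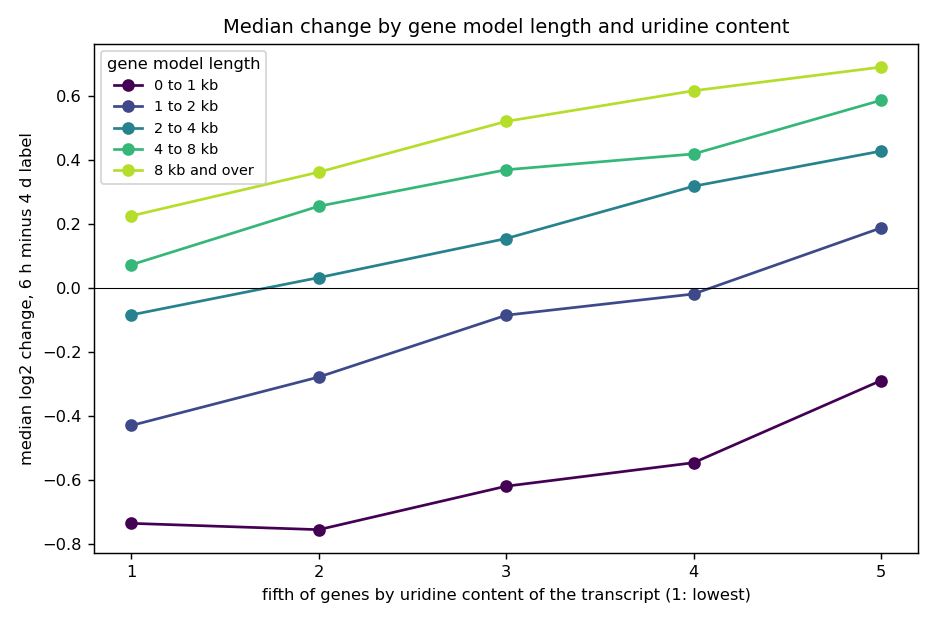
Median log2 change (6 h minus 4 d label) for 5 groups of genes of equal size ordered by the uridine content of the transcript, 1 line for each range of gene model length. The lines stand in the order of length in each group, and each is higher in the group of highest content than in the lowest, for instance -0.43 and 0.19 for 1 to 2 kb.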

How the data were processed

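The authors deposited RPKM per gene for 32 labelling and inhibition libraries (16979 genes), made with Trim Galore, STAR, featureCounts of Subread and edgeR on mm10, per the submitters' processing notes. Their versions and the use of strand are not stated there. Names in the header row stand 1 cell left of their values, so columns were taken by position. Where the table gave no symbol, 1350 of 1488 genes were named by gene ID from GENCODE M21. RPKM times length came out as whole reads (100% of values within 0.1 read), which gave the reads per library. Read depth limits precision for genes with few reads, among them very short genes at a higher RPKM.

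The 4 libraries per label were compared with limma 3.58.1 (R 4.3.3; trend option, two-sided) on log2(RPKM + 0.5) over genes that reached 1 RPKM in 3 of 8 libraries, with Benjamini-Hochberg adjusted p under 0.05, without a replicate block. The fit was tested on simulated data. Tables used pandas 2.3.3 and numpy 2.4.6 under Python 3.11.15, and figures matplotlib 3.10.9. Means carry SD over 4 libraries.

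The comparison, the 39 lists and the genes to name were chosen with earlier results of these data known, so lists are described by counts and medians without a test. Named were the 15 largest rises and 15 largest falls among called genes with a mean of 5 RPKM in the higher label whose libraries did not overlap, leaving out gene models known only by number and any gene not reported here, the 4 members with the smallest adjusted p in every list, and in any case Acta1, Dmd, Egr1, Fos, Gm10800, Hspa1a, Jun, Myf5, Myod1 and Pax7. Other list members given with a log2 change only were chosen after their values were seen. Alternatives covered library sizes, filters, pseudocounts, limma-voom on recovered reads, 1 fit of all groups, a replicate block and each library left out.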

Additional observations from a re-analysis of the deposited data

Results flagged for a closer look

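In a group of 4 libraries, 1 library was set apart when its gap to the nearest other made up more of the group's range than Dixon's critical value for 4 values. Of 442 groups looked at (each named gene and the read share of each list, in each label), 36 (8.14%) held such a library, where chance gives about 1 in 20. Most gaps were small beside the difference between the labels. The widest were those of replicate 1 of the 6 h label in RNA of the mitochondrial genome, with mt-Tt at 11.9 RPKM against 4.31 to 5.43, mt-Tv at 34.8 RPKM against 13.4 to 14.3, mt-Th at 37 RPKM against 9.39 to 12.5 and ND4L at 13.1 RPKM against 5.24 to 6.13 in the others of its label. In the 4 d label, Myf5 stood at 0.611 RPKM in replicate 4 against 1.47 to 1.48. Foxo1 stood at 53.9 RPKM in replicate 1 of the 6 h label against 65.6 to 67.3. Each of these genes remained on its side of the other label.

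Replicate 1 of the 4 d label stood apart in Chac1 (16.9 RPKM against 14.2 to 14.7), Ncl (15.3 RPKM against 16.1 to 16.3), Uck2 (16.5 RPKM against 17.5 to 17.6) and Cidec (48 RPKM against 44.1 to 44.5). Replicate 2 of the 4 d label stood apart in Chrna1 (7.97 RPKM against 8.57 to 8.62), Polr2e (40 RPKM against 42.6 to 42.9), Zfp106 (39.1 RPKM against 38 to 38.1), Chodl (3.92 RPKM against 3.08 to 3.16) and Fgfr1 (6.54 RPKM against 6.78 to 6.82). Replicate 3 of the 4 d label stood apart in Coq10b (7.73 RPKM against 6.73 to 6.85), Dnajb1 (9.48 RPKM against 10.3 to 10.3), Tsc22d3 (143.4 RPKM against 133.1 to 133.8), Cdkn1a (37 RPKM against 32.9 to 33.3) and Cspg4 (1.12 RPKM against 1.34 to 1.37). Replicate 4 of the 4 d label stood apart in Adam10 (3.6 RPKM against 3.8 to 3.84). Replicate 1 of the 6 h label stood apart in Nfkbia (157.3 RPKM against 165.7 to 166.2), Vldlr (21.4 RPKM against 21.6 to 21.7) and Ankrd23 (1028.7 RPKM against 1073.2 to 1080.0). Replicate 2 of the 6 h label stood apart in Fbxo30 (15.4 RPKM against 13.4 to 13.6), Nop58 (16.4 RPKM against 15.5 to 15.6), Ifi27 (54.2 RPKM against 58.5 to 58.9), Bst2 (15.9 RPKM against 17.6 to 17.9) and Fgfr1 (16.6 RPKM against 17.3 to 17.4). Replicate 3 of the 6 h label stood apart in Snhg12 (4.41 RPKM against 4 to 4.06). Replicate 4 of the 6 h label stood apart in Me1 (31.7 RPKM against 28.7 to 29.1) and 8430408G22Rik (603.1 RPKM against 560.7 to 561.3). Among read shares, mRNA decay and feedback genes took 0.0911% in replicate 4 of the 4 d label against 0.101 to 0.103%, RNA polymerase II subunits genes took 0.0454% in replicate 4 of the 6 h label against 0.0466 to 0.0467%, ribosomal protein genes took 1.22% in replicate 4 of the 4 d label against 1.14 to 1.15% and fibro-adipogenic markers took 0.25% in replicate 4 of the 6 h label against 0.263 to 0.265%.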

How the results depend on the processing

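Every named gene kept its direction under every alternative tried except Col6a1, Mbp and Comp, which became 0.0443, 0.0779 and 0.1741 with library sizes from all reads but the repeat-derived models. Of 3258 gene values under 18 alternatives 8 were no longer called: Comp under sizes from all reads, Dhodh, Col6a1 and Mbp when repeat-derived models were left out of them, and Mbp, Fmod, Comp and Acta1 in 1 fit of all groups, where calls fell to 4835 higher and 2941 lower. Sizes from all reads gave 541 genes lower by 2-fold or more. Leaving repeat-derived models out of them gave 2563 lower genes, 3218 higher by 2-fold or more and 301 lower by 2-fold or more. Without the filter 7094 genes were higher and 7220 lower of 16978 tested, so higher genes no longer outnumbered lower ones. Other counts stayed within 1.5 times the reported ones, for example 6321 higher and 4309 lower by limma-voom on recovered reads. Medians that changed sign with sizes from all reads were fat synthesis 0.0695, mitochondrially encoded 0.1122, immune 0.1178, smooth muscle 0.0008 and Schwann 0.0777. With repeat-derived models left out these were 0.2816, 0.3591, 0.3606, 0.1935 and 0.2746, and salvage became 0.150, collagens 0.1102, polymerase II subunits 0.0503, proteasome 0.1593 and fibro-adipogenic markers 0.0763. Myogenic differentiation became -0.1417 without the filter and -0.2724 with a filter of 50 reads. The cause of these shifts was not tested beyond the change of scale itself. Leaving out each library in turn gave 6207 to 6340 genes higher, 4222 to 4308 lower, 1591 to 1708 higher by 2-fold or more and 805 to 850 lower by 2-fold or more. A replicate block gave 6327 higher and 4328 lower genes; same-numbered libraries correlated at 0.108, 0.0702, -0.00245 and 0.0862, and replicates 3 and 4 of the 6 h label did not correlate best with their own number, so the numbers were not taken as pairs. Depth of 30933516 reads or more limits genes with few reads. Beside Pax7 these include several of the largest falls. In the 6 h libraries mt-Tf had 5 to 24 reads, mt-Tt 8 to 23, Olfr1124 7 to 12 and Camp 18 to 84.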

Other observations

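Genes that span more of the genome were higher in the 6 h label, less steeply than by gene model length: the median change was -0.13 for 3470 genes spanning under 10 kb, 0.16 for 3946 of 10 to 30 kb, 0.35 for 3250 of 30 to 100 kb, 0.41 for 1112 of 100 to 300 kb and 0.41 for 197 of 300 kb or more. By transcript type, 11153 protein-coding genes had a median of 0.20, 150 lincRNAs 0.28, 144 antisense RNAs 0.18 and 66 other processed transcripts 0.02. The 210 processed pseudogenes had a median of -0.74, and 31.4% of them were lower by 2-fold or more. Processed pseudogenes are copies of mRNAs and can share reads with the genes they were copied from. Whether the counting used strand is not stated, and if it did not, antisense RNAs cannot be told apart from the genes they face. GC content of the transcript had a Spearman's rho of -0.271 with the change across genes.

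For the 15 largest falls, the mean of the 1 d label lay between those of the 6 h and 4 d labels in 13 genes and was nearer to the 4 d label in 10. The level in whole-muscle RNA was within 2-fold of the 4 d label in 6 of them.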
